A study of Mus musculus with 6 samples.

Results

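The genes described here are the carriers of the solute carrier families Slc1a, Slc3a, Slc6a, Slc7a, Slc36a, Slc38a and Slc43a, which move amino acids and neurotransmitters across membranes. They were taken by name from the protein-coding genes of the deposited table. The naming rule takes 63 of 38258 genes, and 62 of these are carriers. The remaining gene, Slc7a6os, is named for its position beside Slc7a6 and is no carrier, so it is left out of all counts of carriers. Of the 62 carriers, 49 averaged at least 10 normalized counts across the 6 libraries and were tested.

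The RNA-seq libraries come from skin epidermis of mice at postnatal day 0. Cells of the back skin were sorted for the surface proteins EpCAM and Sca1 and for a high level of α6-integrin, which together mark epidermal progenitors of the interfollicular epidermis. The 3 control libraries carry the genotype label Control, with no allele named. The other 3 libraries are labelled as a triple knockout, Eed -/- Ring1a-/- Ring1b-/-, where Ring1a is the gene Ring1 and Ring1b is the gene Rnf2. Eed belongs to Polycomb repressive complex 2, which methylates histones, and the ligases Ring1a and Ring1b give Polycomb repressive complex 1 its activity on histones, so the comparison addresses what targeting both complexes at once does to expression. The labels name no Cre driver and no deleted exons, and they do not say that the numbered replicates are separate animals. The p-values therefore rest on library-to-library spread alone, part of which may be technical.

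The targeted genes did not all follow the labels. Eed fell in the labelled triple knockout libraries (log2 change -0.82, SE 0.21, adjusted p = 0.0144), Rnf2 did not pass the test (log2 change -0.24, SE 0.22, adjusted p = 0.417), and Ring1 rose, against its label, from at most 23.1 normalized counts in a control to at least 67.7 in a labelled knockout (log2 change 2.70, SE 0.40, adjusted p = 7.59e-04). The exact two-sided permutation p over 20 assignments of libraries was 0.1 for Eed and Ring1, the smallest it can give, and 0.5 for Rnf2. Transcripts can still be counted where only part of a gene is deleted, so these levels do not by themselves test the genotype. Because Ring1 goes against its label, that group is called by its label throughout.

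Here a log2 change is the mean of log2(normalized count + 1) in the labelled triple knockout libraries minus that in controls, with its standard error (SE), and it understates the change of genes near 0. "Rose" and "fell" are used only for genes with an adjusted p below 0.05 in limma's test, adjusted over all 23006 tested genes. Library totals ran from 21896285 to 29805729 normalized counts, or about 17.8 M to 37.7 M reads. A read was worth 0.716 to 1.31 normalized counts depending on the library, so the lowest values below stand for very few reads. Ribosomal RNA genes held between 22.5% and 36.6% of the normalized count, the highest share being that of control 3.

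Amino acids do not cross membranes freely, and each cell sets its supply by the carriers that it expresses. The Slc1, Slc6 and Slc38 families use mainly the sodium gradient to concentrate their substrates, whereas many Slc7 proteins exchange an amino acid on one side of the membrane for another on the other side. Part of the Slc7 family are light chains that reach the cell surface only when bound to a heavy chain of the Slc3 family. Several Slc1 and Slc6 carriers are best known in the nervous system, where they clear glutamate, monoamines, glycine or GABA after release, and Slc38a2 and Slc7a5 are known for supplying dividing cells with neutral amino acids.

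Promoter sequences are shown for the carriers with the largest rise in each of the Slc7a and Slc6a families among genes expressed above 100 normalized counts on average, and for 2 carriers that fell and have a RefSeq promoter. They are given because CpG-rich promoters are the regions at which Polycomb complexes are known to bind in mammals. Each is the 250 bases before the most upstream RefSeq start (GRCm38.p6), 5′ to 3′ on the gene's strand, with the dinucleotide CG in capitals. The windows of Slc7a10 and Slc6a17 adjoin the gene as the deposited table places it, and that of Slc1a3 lies just upstream of it. The Slc43a1 window lies inside the gene, downstream of the start in the deposited table, because RefSeq places the start there. The motif is the letters CG, which read the same on both strands. The Slc7a10 window is chr7:35186135-35186384 (plus strand), the Slc6a17 window chr3:107518019-107518268 (minus strand), the Slc1a3 window chr15:8710808-8711057 (minus strand) and the Slc43a1 window chr2:84840073-84840322 (plus strand).
Slc7a10: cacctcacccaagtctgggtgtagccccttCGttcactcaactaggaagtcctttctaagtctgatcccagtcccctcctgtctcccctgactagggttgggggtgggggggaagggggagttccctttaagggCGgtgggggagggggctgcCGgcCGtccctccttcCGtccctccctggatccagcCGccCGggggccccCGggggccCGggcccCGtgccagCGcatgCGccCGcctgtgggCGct
Slc6a17: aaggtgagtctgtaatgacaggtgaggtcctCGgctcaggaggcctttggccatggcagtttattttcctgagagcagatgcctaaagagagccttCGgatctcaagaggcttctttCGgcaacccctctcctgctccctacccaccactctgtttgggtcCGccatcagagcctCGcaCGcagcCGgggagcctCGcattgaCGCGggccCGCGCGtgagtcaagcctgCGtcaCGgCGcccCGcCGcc
Slc1a3: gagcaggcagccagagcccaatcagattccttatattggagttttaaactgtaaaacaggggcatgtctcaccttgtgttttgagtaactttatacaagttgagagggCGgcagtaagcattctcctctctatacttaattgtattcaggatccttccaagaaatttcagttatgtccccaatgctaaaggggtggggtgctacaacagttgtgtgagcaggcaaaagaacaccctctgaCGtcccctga
Slc43a1: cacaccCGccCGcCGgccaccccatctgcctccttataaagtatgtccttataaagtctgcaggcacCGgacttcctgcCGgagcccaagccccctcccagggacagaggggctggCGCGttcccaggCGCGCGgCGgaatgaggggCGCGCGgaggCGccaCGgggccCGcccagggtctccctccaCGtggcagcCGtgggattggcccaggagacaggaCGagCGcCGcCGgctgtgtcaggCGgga
The Slc7a10 window held 14 CG, and 29.5% of the 27025 RefSeq promoters held at least as many in a window of this length. The Slc6a17 window held 18 (21.6% of promoters held at least as many), the Slc43a1 window 24 (11.7%) and the Slc1a3 window 2 (80.5%). These 4 genes were chosen by the direction of their change, so their counts cannot show whether direction goes with the number of CG. No comparison over all carriers was made, and it would be incomplete, since only 45 of the 62 (72.6%) matched a RefSeq promoter. No binding or methylation was measured in these samples, so the sequences describe the genes only.

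Of the 49 tested carriers, 18 rose, 10 fell and 21 did not pass the test. Among all 23006 tested genes 35.8% passed, 20.5% as higher and 15.3% as lower in the labelled triple knockout libraries. The median log2 change of the tested carriers was 0.16, beside 0.01 for all tested genes. It became -0.085 when GC content and transcript length were removed per library, and leaving out single libraries moved it between 0.055 (without labelled knockout 3) and 0.37 (without control 2 or control 3), so its size depends on the processing. The 2 groups did not overlap for 32 of the 49 carriers, against 49.1% of all tested genes. A change of at least 2-fold was reached by 14 of the carriers that rose and by 6 of those that fell, beside 15.5% and 8.05% of all tested genes. The filter on the mean lets in genes that are near 0 in controls only if they are high in the other group. Such were Slc6a3, Slc6a7, Slc7a10, Slc38a3 and Slc38a5, whose control means lay below 10, and all 5 rose. Among the 44 tested carriers with a control mean of at least 10, 13 rose, beside 17.6% of all tested genes with such a control mean. Without labelled knockout 3 the number of carriers that rose was 11 in place of 18, and the share of all genes that rose was 15.6% in place of 20.5%.

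**Figure D1:**
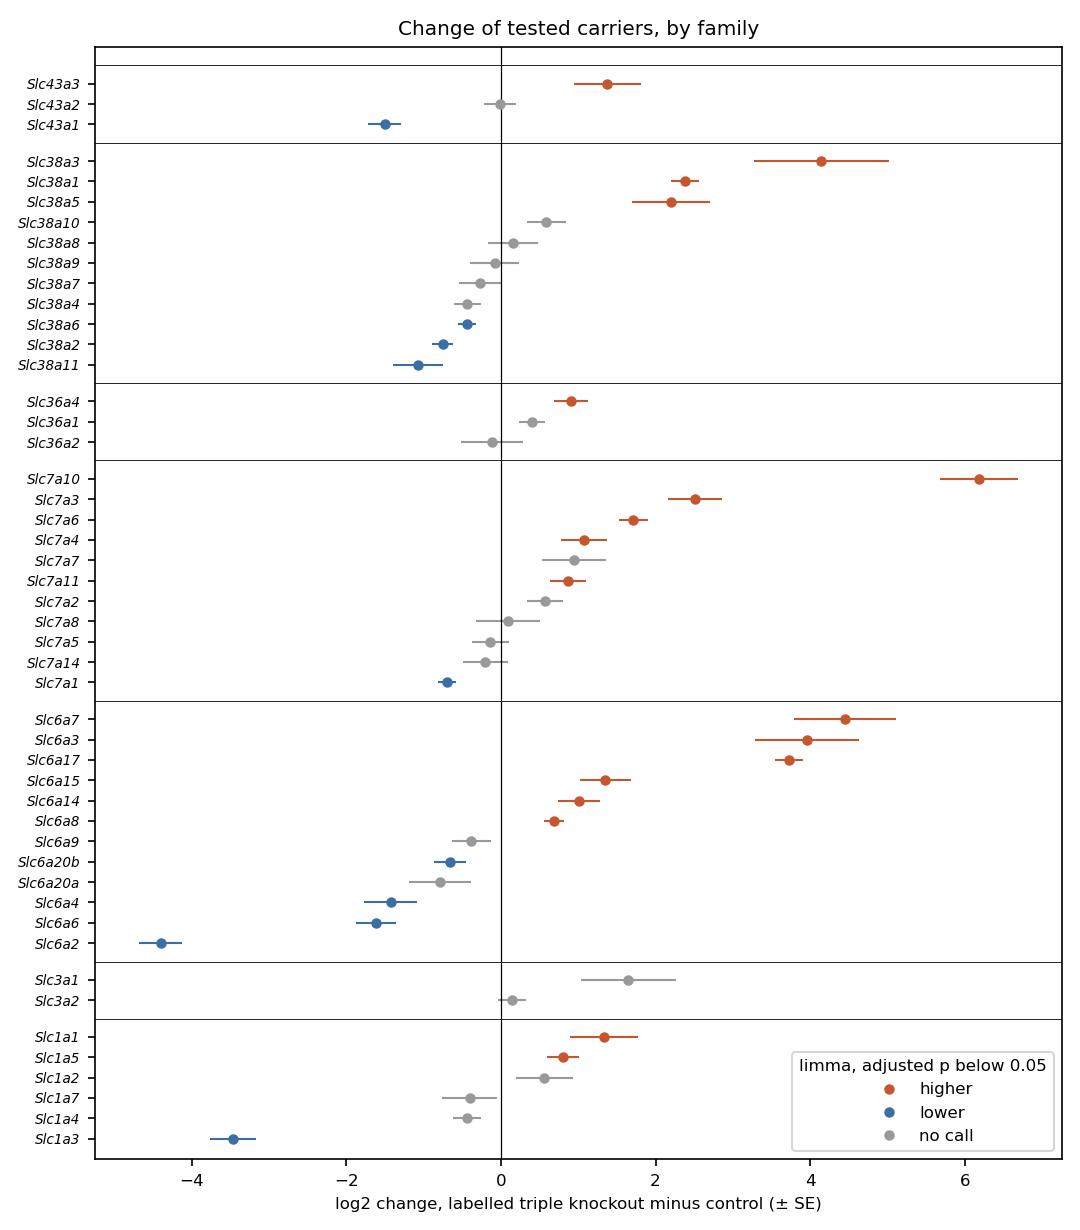
Log2 change of 48 of the 49 tested carriers (x axis, labelled triple knockouts less controls, from log2(normalized count + 1); points are estimates and bars ± SE), grouped by family on the y axis and coloured by the limma call. The changes run from -4.40 for Slc6a2 to 6.19 for Slc7a10, and every family except Slc3a holds at least 1 carrier that passed.

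Carriers are given next by their mean over all libraries, beside all genes in the same range; no test of a difference between the ranges was made. Of the 17 carriers with a mean of 10 to 100 normalized counts, 7 rose (41.2%) and 1 fell (5.88%), beside 16.3% and 9.42% of all genes in that range. Of these 7 rises, 4 were of carriers with a control mean below 10 (Slc6a3, Slc6a7, Slc38a3 and Slc38a5), and 3 of the other 13 carriers rose. Of the 24 carriers between 100 and 1000, 10 rose (41.7%) and 5 fell (20.8%), beside 25.4% and 18.4%. The 8 most expressed carriers, at 1000 or more, were Slc38a2, Slc6a6, Slc38a4, Slc7a1, Slc38a6, Slc7a5, Slc6a8 and Slc3a2. Of these 1 rose (12.5%) and 4 fell, beside 20.6% and 24.7% of all genes in that range. Normalized counts divided by the length of each gene's longest annotated transcript, in kb, were used to compare levels between genes. Summed over all carriers they came to 12740, 11985 and 11532 per kb in controls and to 7663, 8972 and 9222 in the labelled triple knockout libraries. All 3 controls lay above all 3 labelled knockouts. Slc38a2 and Slc6a6, which fell, held a large part of this sum. Their means per kb were 3905.5 and 2248.5 in controls and 2331 and 696.05 in the labelled knockouts. The sum thus mainly follows those carriers and does not describe carriers in general. In bulk samples, fewer cells that express a carrier and less of its RNA per cell cannot be told apart.

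Among the 4 tested carriers of glutamate and aspartate, which belong to the Slc1a family, 1 fell and 1 rose. Of all tested genes, 15.3% fell and 20.5% rose. Slc1a3 (GLAST; chr15:8634124-8710764, minus strand, GRCm38), a sodium-dependent glutamate and aspartate carrier known from astrocytes, was listed at 1794, 1596 and 852 normalized counts in controls and at 127, 90.2 and 154 in the labelled triple knockout libraries. Control 3 was the lowest control, but it still lay several times above every labelled knockout, and Slc1a3 fell (log2 change -3.47, SE 0.30, adjusted p = 4.05e-05). Slc1a1, which carries glutamate and cysteine, went the other way, from 69.5, 108 and 30.0 to 227, 135 and 121. Its groups did not overlap, although control 2 came close to the labelled knockouts, and it rose (log2 change 1.33, SE 0.44, adjusted p = 0.0422). That call was lost without control 1, control 3 or any single labelled knockout, under quantile normalization and without trend or robust estimation, where the adjusted p lay between 0.0551 and 0.154, and without control 3 the log2 change was 0.83. Slc1a1 also shares 31.4% of its 31-base words, on the opposite strand, with 4430402I18Rik, a gene that had no call. The glial carrier Slc1a2 and the retinal carrier Slc1a7 did not pass, with log2 changes of 0.56 and -0.41, and Slc1a6 stayed below 10 in every library.

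The neutral amino acid exchangers of the same family lay at opposite signs. Slc1a5 (ASCT2), a glutamine carrier, was listed at 134, 158 and 192 in controls and at 244, 296 and 304 in the labelled triple knockout libraries. Every labelled knockout exceeded every control, and it rose (log2 change 0.81, SE 0.21, adjusted p = 0.0139). The call was lost without labelled knockout 2 or 3 (adjusted p 0.0578 and 0.0581) and with GC content and length removed (log2 change 0.34, adjusted p = 0.178). Slc1a4 (ASCT1), which carries serine and alanine, had the highest mean of the family, at 1025, 892 and 772 in controls and 522, 733 and 739 in the other group. The groups did not overlap, yet it did not pass (log2 change -0.44, SE 0.19, adjusted p = 0.0974). It passed as lower under quantile normalization, with GC content and length removed and without control 3, with adjusted p between 0.0252 and 0.0462. Per kb, Slc1a3 held 54.5%, 52.5% and 39.9% of the summed Slc1a level in controls and 8.89%, 5.60% and 9.02% in the labelled triple knockout libraries. The share of Slc1a5 was 9.62% ± 4.05 (SD, n = 3) in controls and 28.0% ± 1.01 in the labelled knockouts. The summed Slc1a level per kb was 742, 686 and 482 in controls and 322, 363 and 386 in the other group, without overlap.

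The monoamine carriers, which return noradrenaline, dopamine and serotonin to cells, passed in opposite directions. Slc6a2, the noradrenaline carrier (chr8:92960079-93001667, plus strand), was listed at 604, 397 and 389 in controls and at 16.4, 19.1 and 27.3 in the labelled triple knockout libraries. All controls lay far above all labelled knockouts, the largest fall among the tested carriers (log2 change -4.40, SE 0.28, adjusted p = 7.29e-06). Slc6a4, the serotonin carrier, was listed at 1432, 1378 and 604 in controls and at 305, 363 and 548 in the other group. Control 3 and labelled knockout 3 nearly met, and Slc6a4 fell (log2 change -1.43, SE 0.34, adjusted p = 0.0101). The dopamine carrier Slc6a3 was at 0, 2.18 and 1.01 in controls, 2 or fewer reads each, and at 16.9, 28.6 and 44.5 in the labelled knockouts. It rose with no overlap (log2 change 3.96, SE 0.67, adjusted p = 0.00168). Per kb the summed monoamine carriers were at 610, 558 and 279 in controls and 117, 141 and 213 in the labelled triple knockout libraries, with control 3 closest to the other group.

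GABA and glycine carriers were mostly at low levels. Slc6a11, a GABA carrier, was listed at 0 in all controls and at 12.4, 15.9 and 25.1 in the labelled knockouts, but its mean was below 10 and it was not tested. It passed as higher with no filter and without any single control. Slc6a12 and Slc6a13 did not reach 10 in any library. The glycine carrier Slc6a9 overlapped between groups and did not pass (log2 change -0.38, SE 0.25, adjusted p = 0.277), although it passed as lower with GC content and length removed (log2 change -0.86, adjusted p = 0.0341). Slc6a9 shares 26.05% of its 31-base words on the opposite strand with Ccdc24, which had no call, so its level is uncertain. Slc6a5 lay between 5.01 and 13.1 and was not tested.

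Among Slc6a carriers with other substrates, the most expressed was Slc6a6, the taurine carrier (chr6:91684053-91759066, plus strand). It was listed at 18905, 14474 and 8348 in controls and at 3758, 4730 and 4430 in the labelled triple knockout libraries. Control 3 was again the lowest control and still exceeded every labelled knockout, and Slc6a6 fell (log2 change -1.62, SE 0.26, adjusted p = 0.00125). Per kb it was at 2248 ± 857 (SD, n = 3) in controls and 696 ± 80.4 in the labelled knockouts, 68.0% and 39.4% of the summed Slc6a level. Slc6a8, which carries creatine, not an amino acid, was at 1174, 1273 and 1204 in controls and at 1797, 2115 and 1969 in the other group. Each labelled knockout lay above the controls, and it rose (log2 change 0.69, SE 0.13, adjusted p = 0.00277), a call lost when GC content and length were removed (log2 change 0.19, adjusted p = 0.244). The proline carrier Slc6a7, known from brain, was listed at 0, 1.09 and 0 in controls, at most 1 read, and at 31.1, 18.03 and 34.4 in the labelled triple knockout libraries. It rose (log2 change 4.45, SE 0.66, adjusted p = 8.06e-04).

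Of the 5 tested carriers of neutral and other amino acids in the Slc6a family, 3 rose and 1 fell. Of all tested genes, 20.5% rose and 15.3% fell. Slc6a17 (NTT4; chr3:107467543-107518018, minus strand), a carrier of neutral amino acids into vesicles in neurons, was at 101, 116 and 81.3 in controls and at 1243, 1436 and 1263 in the labelled triple knockout libraries. The 3 labelled knockouts lay close together and 13.2-fold above the controls on the linear scale (log2 change 3.72, SE 0.18, adjusted p = 2.24e-06). Its relative Slc6a15, which carries branched-chain amino acids and proline, was at 13.3, 16.02 and 14.2 in controls and at 32.5, 35.5 and 49.4 in the other group. It rose without overlap (log2 change 1.35, SE 0.33, adjusted p = 0.0104), but not without labelled knockout 3 (adjusted p = 0.0575). Slc6a14, which takes up neutral and cationic amino acids, was at 104, 120 and 71.3 in controls and at 243, 204 and 148 in the labelled triple knockout libraries. It rose (log2 change 1.01, SE 0.27, adjusted p = 0.0179), a call lost under quantile normalization and without labelled knockout 1 or 2 (adjusted p between 0.0538 and 0.0773).

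Slc6a20b was at 213, 248 and 323 in controls and at 170, 158 and 159 in the labelled triple knockout libraries. It fell without overlap (log2 change -0.66, SE 0.21, adjusted p = 0.0331), but the call was lost without any single library other than control 1 and with GC content and length removed (adjusted p between 0.0648 and 0.120). It shares 20.5% of its 31-base words with Sacm1l on the opposite strand and 9.27% with its near copy Slc6a20a, which had no call (log2 change -0.79, adjusted p = 0.161), so the level of each is uncertain. The remaining Slc6a members, Slc6a16, Slc6a18, Slc6a19 and Slc6a21, stayed below 10 in every library. Over the family, 6 of 13 tested carriers rose and 4 fell, beside 20.5% and 15.3% of all tested genes, the median log2 change being -0.38. With a minimum mean of 50, 3 of 8 rose, beside 23.9% of all genes then tested. The summed Slc6a level per kb was 4181, 3482 and 2120 in controls and 1578, 1906 and 1809 in the other group, without overlap. Slc6a6, which fell, held on average 68.0% of that sum in controls and 39.4% in the labelled knockouts, so the sum mainly follows Slc6a6.

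**Figure D2:**
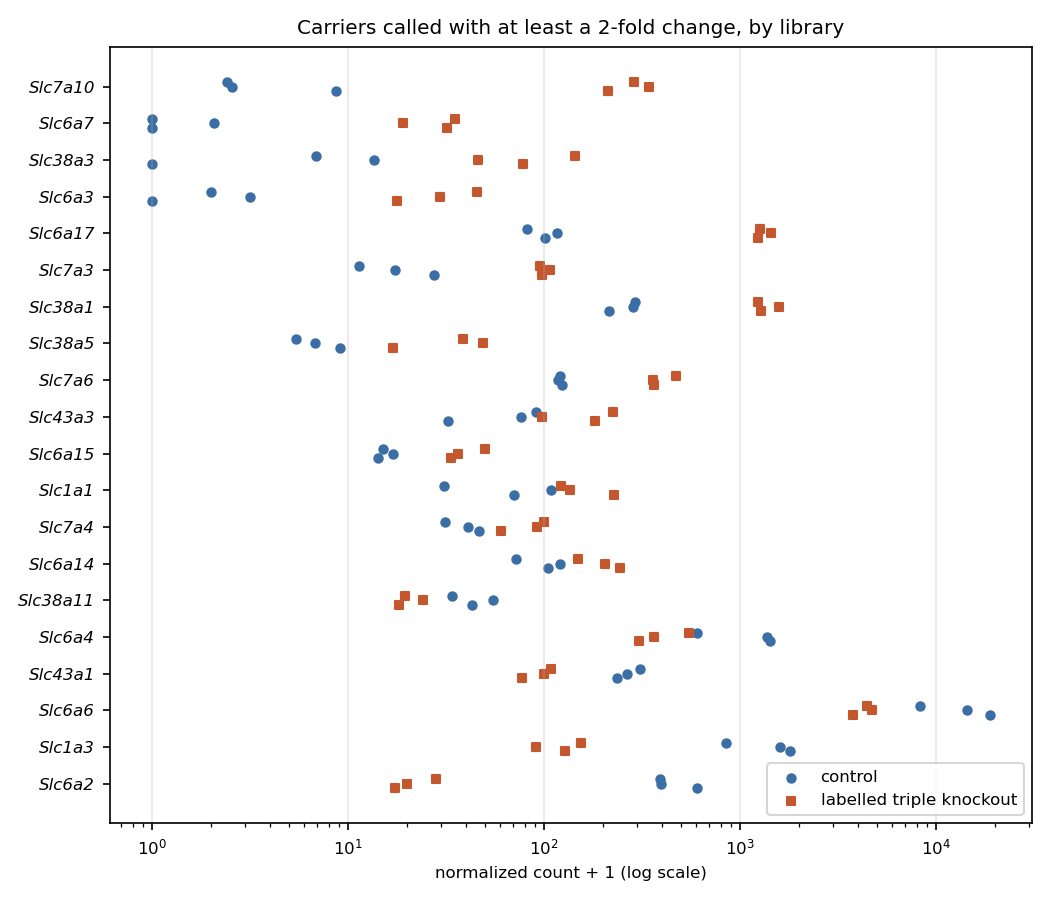
Normalized count + 1 on a log axis (x axis) in each library for the 20 carriers that passed with at least a 2-fold change (y axis, ordered by log2 change); circles are the 3 controls and squares the 3 libraries labelled triple knockout. No gene overlaps between groups, and the gap is narrow for Slc43a3, Slc1a1 and Slc6a4.

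The cationic amino acid carriers, which bring in arginine and lysine, passed in both directions. Slc7a1 (CAT1; chr5:148327410-148399904, minus strand) had the highest mean of the Slc7a family, at 5269, 4698 and 4391 in controls and 2914, 2997 and 2918 in the labelled triple knockout libraries. The labelled knockouts were nearly equal, all lay below the controls, and it fell (log2 change -0.70, SE 0.12, adjusted p = 0.00184). Slc7a3 (CAT3), known from brain, rose from 26.4, 16.4 and 10.4 to 97.5, 107 and 94.3, with no overlap (log2 change 2.52, SE 0.35, adjusted p = 5.71e-04). Slc7a2 (CAT2) overlapped through control 3 and did not pass (log2 change 0.57, SE 0.23, adjusted p = 0.0812). It passed as higher without control 3 (log2 change 0.85, adjusted p = 6.96e-04). The summed level of these 3 carriers per kb was 814, 728 and 739 in controls and 558, 580 and 576 in the other group. Slc7a1 alone held 734, 654 and 612 of this in controls and 406, 417 and 406 in the other group, so the sum mainly follows Slc7a1. Slc7a4, a relative of these carriers, was at 45.6, 40.0 and 30.3 in controls and at 59.7, 91.0 and 99.0 in the labelled triple knockout libraries. It rose (log2 change 1.07, SE 0.30, adjusted p = 0.0190), but not without labelled knockout 2 or 3 or with GC content and length removed (adjusted p between 0.0746 and 0.0975). Slc7a14 did not pass (log2 change -0.20, SE 0.29, adjusted p = 0.628).

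The heavy chains of the Slc3a family did not pass in limma's test, and 1 of the 2 had an unadjusted p below 0.05. Slc3a2 (CD98 heavy chain), the partner of most light chains and of β1 integrins, was at 1065, 1136 and 1417 in controls and 1093, 1335 and 1578 in the labelled triple knockout libraries, with overlapping groups (log2 change 0.14, SE 0.18, adjusted p = 0.573). Slc3a1, the heavy chain of the cystine carrier of kidney, was between 3.93 and 57.3 and did not pass (log2 change 1.65, SE 0.61, adjusted p = 0.0642). It passed as higher without control 2 (adjusted p = 0.0192). It shares 25.5% of its 31-base words on the opposite strand with Prepl, which rose (log2 change 0.77, adjusted p = 0.00783).

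Of the 6 tested light chains 3 rose, by differing amounts, and none fell. Beside these, 20.5% of all tested genes rose and 15.3% fell. Slc7a10 (Asc-1; chr7:35186385-35201114, plus strand), an exchanger of small neutral amino acids including D-serine, was at 7.74, 1.55 and 1.43 in controls and at 211, 345 and 287 in the labelled triple knockout libraries. Every labelled knockout lay far above the few reads of the controls, the largest rise among the tested carriers (log2 change 6.19, SE 0.50, adjusted p = 2.62e-05). Its 3′ end overlaps Lrp3 on the opposite strand, with 14.9% of its 31-base words shared, and Lrp3 also rose, from 23.0, 18.04 and 90.6 to 270, 199 and 231 (log2 change 2.74, SE 0.52, adjusted p = 0.00296). Whether counting used strand is not stated, so reads from the shared stretch cannot be assigned to either gene. Slc7a6, which exchanges cationic for neutral amino acids, rose from 123, 117 and 120 to 364, 361 and 469, with no overlap (log2 change 1.71, SE 0.19, adjusted p = 1.45e-04). Slc7a11, the cystine and glutamate exchanger that feeds glutathione synthesis, rose from 132, 98.3 and 101 to 202, 246 and 162 (log2 change 0.87, SE 0.23, adjusted p = 0.0170). The Slc7a11 call was lost under quantile normalization and without control 2 or labelled knockout 1 or 2 (adjusted p between 0.0535 and 0.0779).

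Slc7a5 (LAT1), the main carrier of leucine and other large neutral amino acids, was at 1523, 1392 and 2767 in controls and 1496, 1769 and 1656 in the labelled triple knockout libraries. Control 3 stood apart from the other controls, the groups overlapped, and it did not pass (log2 change -0.14, SE 0.24, adjusted p = 0.690). Slc7a8 and Slc7a7 overlapped and did not pass, with log2 changes of 0.09 and 0.94, and Slc7a7 passed as higher without control 2 (log2 change 1.43, adjusted p = 0.0108). Slc7a9 and Slc7a15 stayed below 10 in every library, and Slc7a13 lay between 6.53 and 14.8 and was not tested. Slc7a6os, the gene beside Slc7a6, fell (log2 change -0.50, SE 0.15, adjusted p = 0.0291), opposite in direction to its neighbour, and the exons of the 2 genes do not overlap.

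Set against their shared heavy chain per kb, the level of Slc7a5 was 1.14, 0.980 and 1.56 times that of Slc3a2 in controls and 1.09, 1.06 and 0.840 times in the labelled triple knockout libraries, so the groups overlapped. The ratio of Slc7a6 to Slc3a2 was 0.0869, 0.0771 and 0.0636 in controls and 0.250, 0.203 and 0.223 in the other group. That of Slc7a10 was 0.0105, 0.00197 and 0.00146 in controls and 0.278, 0.372 and 0.262 in the labelled knockouts. In the labelled knockouts Slc7a10 was thus at a similar level per kb to Slc7a6, which it lay far below in controls. Over the Slc7a family, Slc7a10 held 0.133% ± 0.138 (SD, n = 3) of the summed level per kb in controls and 10.0% ± 1.79 in the labelled triple knockout libraries, and Slc7a1 held 47.4% ± 9.43 and 28.9% ± 1.87. The summed family level overlapped between the groups. Of 11 tested Slc7a carriers, 5 rose and 1 fell (median log2 change 0.87), beside 20.5% and 15.3% of all tested genes. With labelled knockout 2 left out, 3 of them rose, beside 15.6% of all genes then tested.

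**Figure D3:**
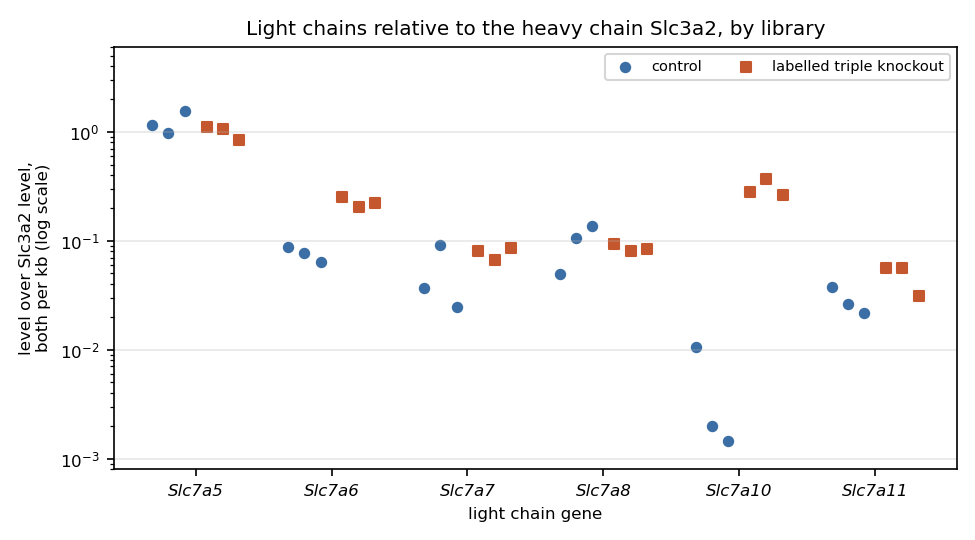
Level of each tested light chain divided by that of the heavy chain Slc3a2, both per kb, on a log axis (y axis) for 6 light chains (x axis); circles are the 3 controls and squares the 3 libraries labelled triple knockout. Slc7a10 moves from at most 0.0105 in controls to at least 0.262 in the labelled knockouts, and Slc7a5 overlaps.

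System A, the sodium-dependent carriers of alanine, serine and glutamine, consists of Slc38a1, Slc38a2 and Slc38a4. Slc38a2 (SNAT2; chr15:96687392-96699730, minus strand), the carrier with the highest normalized count of all, was at 22571, 23690 and 25398 in controls and at 11991, 14860 and 15917 in the labelled triple knockout libraries. All labelled knockouts lay below all controls, and it fell (log2 change -0.75, SE 0.14, adjusted p = 0.00228). Slc38a1 (SNAT1; chr15:96571418-96642913, minus strand), its neighbour on the chromosome, went from 213, 284 and 290 to 1277, 1588 and 1236. The groups lay far apart, and it rose (log2 change 2.38, SE 0.18, adjusted p = 1.80e-05). Slc38a4 was lower in every labelled knockout than in any control but did not pass (log2 change -0.43, SE 0.17, adjusted p = 0.0747), and without control 2 it passed as lower (adjusted p = 0.0291). Per kb, Slc38a2 held 64.9% ± 1.45 (SD, n = 3) of the Slc38a level in controls and 55.5% ± 2.25 in the labelled knockouts, and Slc38a1 held 0.599% ± 0.0847 and 4.51% ± 0.652. System A summed to 4829, 4839 and 5584 per kb in controls and to 2867, 3515 and 3689 in the labelled triple knockout libraries, without overlap. Slc38a2 alone held 3690.5, 3873.5 and 4152.7 of this in controls and 1960.6, 2429.7 and 2602.5 in the other group. The sum thus mainly follows Slc38a2, and Slc38a1 went the other way.

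System N, which carries glutamine and histidine, consists of Slc38a3 and Slc38a5, and both rose from low levels. Slc38a3 was at 0, 12.6 and 5.89 in controls and at 77.4, 45.1 and 143 in the labelled triple knockout libraries (log2 change 4.15, SE 0.87, adjusted p = 0.00534). Slc38a5 was at 8.14, 5.79 and 4.46 in controls and at 16.1, 48.2 and 37.6 in the other group (log2 change 2.19, SE 0.51, adjusted p = 0.00834). Neither overlapped, and the spread within the labelled knockouts was wide for both. The Slc38a5 call was lost without labelled knockout 2 (adjusted p = 0.0539).

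The other Slc38a members are less well described. Slc38a11 was at 42.1, 54.0 and 33.0 in controls and at 17.3, 23.2 and 18.6 in the labelled triple knockout libraries. It fell without overlap (log2 change -1.07, SE 0.32, adjusted p = 0.0275), but the call was lost without control 1, control 2 or labelled knockout 1 or 3 and with GC content and length removed (adjusted p between 0.0645 and 0.0988). Slc38a6 fell by a smaller amount (log2 change -0.44, SE 0.12, adjusted p = 0.0179). Its call was lost without control 1 or labelled knockout 2 or 3, without trend or robust estimation, and with GC content and length removed (adjusted p between 0.0517 and 0.0865). It shares 39.2% of its 31-base words with genes on the opposite strand, mostly Noct, and 31.3% with genes on the same strand, so its level is uncertain. Slc38a9, which reports lysosomal arginine to the mTORC1 kinase, did not pass (log2 change -0.08, SE 0.32, adjusted p = 0.870), nor did Slc38a7, Slc38a8 and Slc38a10, with log2 changes between -0.27 and 0.59. Without control 2, Slc38a10 passed as higher (adjusted p = 0.0376). Of the 11 Slc38a carriers, all tested, 3 rose and 3 fell (median log2 change -0.08), beside 20.5% and 15.3% of all tested genes. With a minimum mean of 50, 1 of 7 rose, beside 23.9% of all genes then tested. Without control 1, without labelled knockout 3 or with GC content and length removed, 1 carrier fell. In these settings 11.7%, 11.6% and 16.3% of all tested genes fell.

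**Figure D4:**
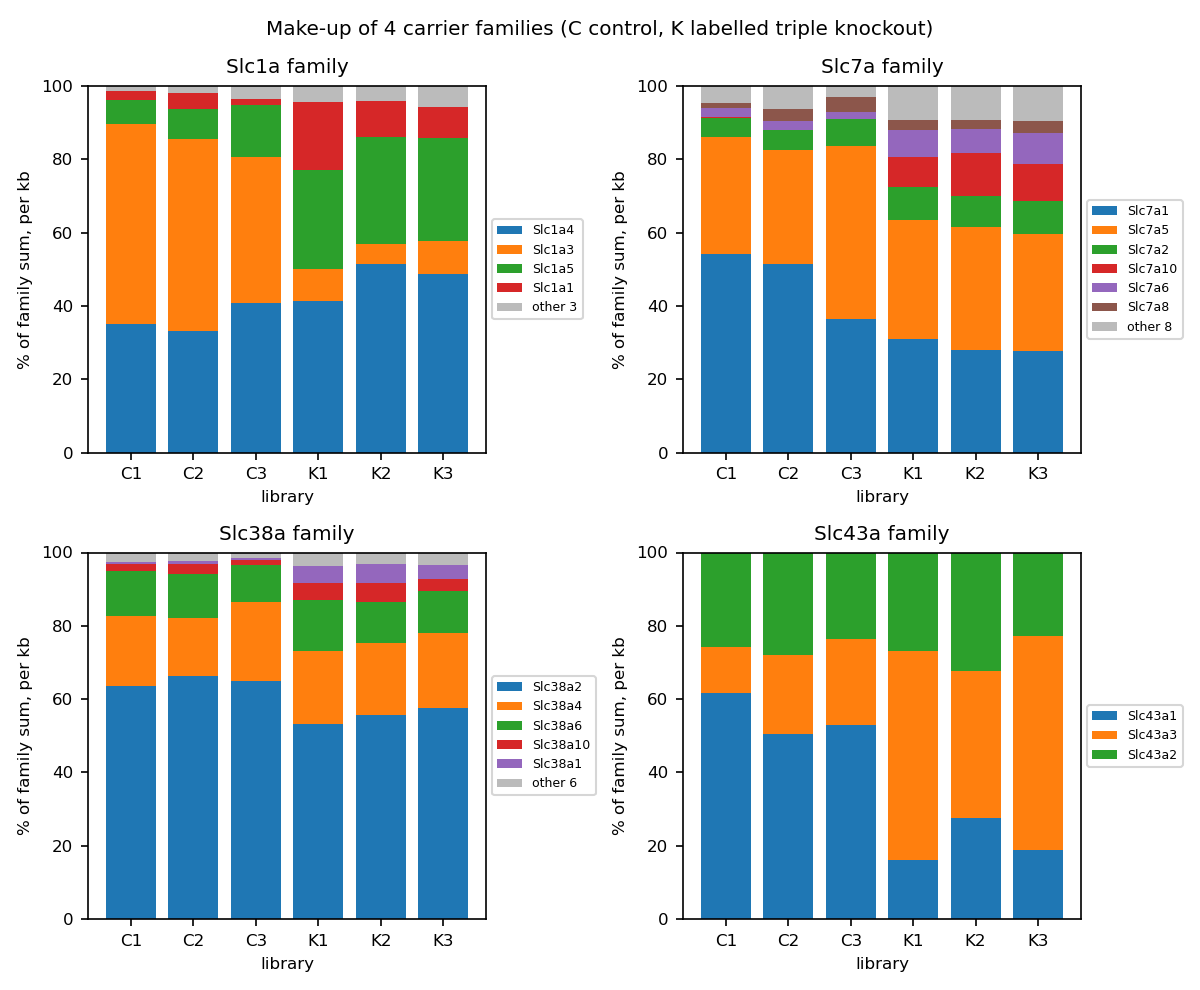
Share of each family's summed level per kb (y axis, %) held by its members in each library (x axis; C1 to C3 are controls and K1 to K3 the libraries labelled triple knockout) for 4 families. Slc1a3 falls from 39.9% or more to 9.02% or less of Slc1a, and Slc43a3 exceeds Slc43a1 in the labelled knockouts but in no control.

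The carriers of the Slc36a family, several of which sit on lysosomes, summed to higher levels in the labelled triple knockout libraries. The family sum per kb was 167, 161 and 196 in controls and 247, 262 and 310 in the other group, without overlap. Slc36a4, a carrier of proline and tryptophan with the highest mean of the family, was at 570, 428 and 733 in controls and 913, 1007 and 1287 in the labelled knockouts. It rose (log2 change 0.91, SE 0.22, adjusted p = 0.0106), a call lost without labelled knockout 3 (adjusted p = 0.0504), where no Slc36a carrier rose. Slc36a1 was at 353, 472 and 393 in controls and 508, 522 and 564 in the labelled triple knockout libraries and did not pass (log2 change 0.40, SE 0.17, adjusted p = 0.0946). Slc36a2 overlapped (log2 change -0.12, SE 0.40, adjusted p = 0.852), and Slc36a3 was listed at 0 in every control, with at most 1.07 in the other group.

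The Slc43a family holds facilitative carriers of large neutral amino acids, and its members lay on both sides of no change. Slc43a1 (LAT3; chr2:84838850-84863594, plus strand) was at 236, 264 and 308 in controls and at 76.3, 99.3 and 108 in the labelled triple knockout libraries, and it fell without overlap (log2 change -1.51, SE 0.22, adjusted p = 7.04e-04). Slc43a3, which is known as a carrier of purine nucleobases rather than of amino acids, was at 31.4, 75.6 and 90.6 in controls and at 181, 96.4 and 223 in the other group. It rose (log2 change 1.38, SE 0.44, adjusted p = 0.0353), but labelled knockout 2 lay just above control 3. Its call was lost under quantile normalization, without trend or robust estimation, and without control 1, control 2 or labelled knockout 1 or 3 (adjusted p between 0.0502 and 0.131). Slc43a2 (LAT4), with the highest mean of the 3, was at 179, 267 and 250 in controls and at 232, 212 and 237 in the labelled triple knockout libraries, overlapping (log2 change -0.01, SE 0.21, adjusted p = 0.968). Per kb, Slc43a1 held 55.0% ± 5.99 (SD, n = 3) of the family in controls and 20.8% ± 5.99 in the labelled knockouts, and Slc43a3 held 19.1% ± 5.92 and 51.9% ± 10.2.

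Of the 13 carriers that were not tested, 10 did not reach 10 normalized counts in any library, and the highest value in any library was 25.1, for Slc6a11 in labelled knockout 3. Slc6a11, Slc6a12, Slc6a16 and Slc36a3 were listed at 0 in all controls, and Slc6a19 was at 0 in every labelled triple knockout library.

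Genes that make, load and break down transmitters were described beside the carriers. Of 19 tested, 8 rose and 1 fell (median log2 change 0.43). Beside this list and the next, 20.5% of all tested genes rose and 15.3% fell. Slc32a1, Pnmt, Slc17a7 and Gad1, which rose, had control means below 10, as had Slc25a2 of the next list, which also holds Slc32a1. The filter on the mean let these genes in only through the labelled knockouts. Among all tested genes with a control mean of at least 10, 17.6% rose. Slc32a1, which loads GABA and glycine into vesicles, was listed at 0 in all controls and at 142, 205 and 225 in the labelled triple knockout libraries (adjusted p = 3.67e-06). Abat, which breaks down GABA, rose (log2 change 2.18, SE 0.21, adjusted p = 6.88e-05), as did Pnmt, which makes adrenaline (log2 change 4.86, SE 0.65, adjusted p = 4.47e-04). Other amino acid and peptide carriers and their partners gave 8 rises and 5 falls among 20 tested, with a median of -0.02. Among them the peptide carrier Slc15a1 rose (log2 change 3.03, SE 0.23, adjusted p = 1.80e-05), and the lysosomal peptide carrier Slc15a4 fell (log2 change -1.31, SE 0.19, adjusted p = 6.69e-04).

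The amino acid stress response driven by Atf4 is known to raise Slc7a11, Slc7a5, Slc3a2 and Slc38a2. Of 28 tested genes of that response, 8 rose and 3 fell, the median log2 change being 0.17. Of all tested genes, 20.5% rose and 15.3% fell. The other 17 genes of the response did not pass, Atf4 itself, Asns, Ddit3, Trib3 and Cebpb among them. Nupr1 (log2 change 3.37, adjusted p = 5.94e-05), Sars (0.78, adjusted p = 0.00592) and Stc2 (2.28, adjusted p = 0.00715) rose, and the serine synthesis enzyme Psat1 fell (log2 change -0.79, adjusted p = 0.00797). In the mTORC1 amino acid sensing pathway, 7 of 26 tested genes rose and 2 fell, with a median of 0.12, beside the same shares of all tested genes. Rragd, a small GTPase that recruits mTORC1 to lysosomes, rose (log2 change 2.05, adjusted p = 1.90e-05), as did Sesn3 (1.17, adjusted p = 5.90e-04) of the sestrin family and Castor2 (3.89-fold on the linear scale, adjusted p = 0.00112), a relative of the arginine sensor Castor1, while the leucine sensor Sesn1 fell (log2 change -1.64, adjusted p = 0.00102).

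Markers of the labelled cell type and of others moved with the groups. Beside the marker counts below, 20.5% of all tested genes rose and 15.3% fell. Of 8 basal epidermis markers 6 fell and 2 rose, and their summed normalized count was between 324190 and 434760 in controls and between 176240 and 189030 in the labelled triple knockout libraries, so they were abundant in every library. The 2 that rose, Ly6a and Epcam, encode sort markers, as does Itga6, which fell. Of tested neuron markers 6 of 9 rose and none fell (sum 160 to 183 in controls and 867 to 1010 in the other group, with Elavl4 at 0 in controls). Map2 alone held 562, 444 and 689 of that sum in the labelled knockouts. Melanocyte markers gave 7 of 8 rises (347 to 455 against 1044 to 1381) and Merkel cell markers 6 of 7 (275 to 374 against 2762 to 3007). The remaining tested Merkel cell marker, Chga, was lower without overlap but did not pass in limma's test (log2 change -1.31, unadjusted p = 0.0465, adjusted p = 0.105). Atoh1, not tested, was at 0, 0 and 3.02 in controls and at 0 in all libraries labelled triple knockout. Of 8 tested Schwann cell markers 4 rose and 1 fell (4596 to 4829 against 3786 to 4626). That sum is carried by Erbb3, the marker that fell, and without it the sum was 559, 701 and 1384 in controls and 1683, 1950 and 2158 in the other group. Rbfox3, Tubb3, Syt1 and Nefm of the neuron list rose from control means below 10. So did Tyrp1, Sox10, Mlana and Slc45a2 of the melanocyte list, and Sox2, Isl1 and Krt20 of the Merkel list. In the Schwann list the same holds for Foxd3 and Sox10. The filter on the mean let these markers in only through the labelled knockouts. Among all tested genes with a control mean of at least 10, 17.6% rose. Carriers known from the nervous system went both ways. Among them Slc6a17, Slc6a7, Slc6a3, Slc7a3, Slc7a10 and Slc38a3 rose, whereas Slc1a3, Slc6a2 and Slc6a4 fell and Slc1a2 did not pass. The part of these cell types in the changes of such carriers was not tested.

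No fibroblast marker of 7 passed in limma's test, 2 being lower at an unadjusted p below 0.05 (8735 to 30929 in controls, highest in control 3, against 9704 to 15076 in the labelled triple knockout libraries). Of 5 tested endothelial markers 1 fell (265 to 701 against 311 to 519), and of 5 tested leukocyte and Langerhans cell markers 1 rose (600 to 1211 against 834 to 896). Cd207, not tested, was at 0 in controls and at 1.78, 2.13 and 0.719 in the other group. No skeletal muscle marker of 4 passed, and 0 had an unadjusted p below 0.05 (118 to 157 against 129 to 171), and 1 of 5 erythroid markers fell (373 to 1349 against 492 to 593).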

How the data were processed

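RNA from sorted epidermal cells was amplified from 10 ng and sequenced as single reads of 100 nucleotides, per the labels' protocols. The deposited values are normalized counts per gene and library, per the file headers, and were handled as a signal that the authors had already scaled, and never as raw counts. The authors used kallisto 0.42.5 and DESeq2, per the submitters' processing notes. The annotation, strand setting and options are not stated. Low values did not come out as whole reads, so no count model was run, and depth is approximate.

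The test was limma (version 3.58.1, R 4.3.3) on log2(normalized count + 1), with empirical Bayes that was robust and followed the mean-variance trend, and without covariates. It covered genes averaging at least 10 across the 6 libraries, and p-values were Benjamini-Hochberg adjusted over all of them with a threshold of 0.05. The procedure was tested on simulated data. Levels per kb use the longest GENCODE M21 transcript. Coordinates come from the deposited table, and the build is named GRCm38 because 98.4% of its genes match that annotation. Shared sequence was counted over words of 31 bases of the annotated transcripts.

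The carriers and all gene lists were chosen with earlier results of these data known, and the grouping of carriers by role was written after their values were seen. Values in every library are given for each carrier that passed with an absolute log2 change of at least 1, for the member with the highest mean in each family, and for others that complete a role group. Of each other list up to 4 genes with the smallest p are named, and further genes are named where a count needs a limit. Some genes that these rules name are left out here, but they stay in the counts. Alternatives changed the pseudocount (0.5, 5), the minimum mean (none, 50), the scaling (trimmed-mean factors, quantiles) and the variance model (no trend, not robust). Others added the replicate number as a block, removed GC content and length with splines, or left out each library in turn.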

Additional observations from a re-analysis of the deposited data

How the results depend on the processing

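No carrier that passed changed sign under any alternative. Of 770 recomputed single-carrier results, 703 kept their side of the threshold, 54 lost it and 13 gained it. Over all genes, quantile normalization shifted the median log2 change to -0.18 and the share of calls that were higher from 57.3% to 45.6%. The number of carriers that rose lay between 11 and 20 when single libraries were left out, and the number that fell between 7 and 10. The share of all tested genes that rose then lay between 15.6% and 24.6%, and the share that fell between 10.9% and 17.4%. The median log2 change of the carriers lay between 0.055 and 0.372 when single libraries were left out and was -0.085 with GC content and length removed, with or without the replicate block. By family, leaving out single libraries gave 0 to 2 rises and 1 to 2 falls in Slc1a, 0 to 1 rises in Slc3a, 4 to 7 rises in Slc6a, 3 to 6 rises in Slc7a, 0 to 1 rises in Slc36a, 2 to 4 rises and 1 to 3 falls in Slc38a, and 0 to 1 rises in Slc43a. Quantile normalization gave 1 rise and 2 falls in Slc1a and 0 rises in Slc43a. Fitting without trend or robust estimation gave 1 rise in Slc1a and 0 in Slc43a. A minimum mean of 50 gave 3 rises in Slc6a and 1 in Slc38a, since fewer carriers were tested. Removing GC content and length gave 1 rise and 2 falls in Slc1a and 1 fall in Slc38a, and together with the replicate block the same and 3 rises in Slc7a. Of all tested genes, 18.2% rose and 21.6% fell under quantile normalization, and 18.6% and 13.4% without trend or robust estimation. With a minimum mean of 50 the shares were 23.9% and 19.1%. Removing GC content and length gave 20.7% and 16.3%, and together with the replicate block 20.6% and 15.6%. The cause of these shifts was not tested.

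Same-numbered libraries correlated at 0.061, -0.023 and 0.022 in their deviations from the group means. Differently numbered libraries of the 2 groups correlated between -0.091 and 0.067. With so few libraries this cannot decide whether the numbers pair them, and the labels do not say. With the replicate block the carriers gave 20 rises and 9 falls, beside 20.7% and 14.5% of all tested genes. In that fit Slc6a20b lost its call (adjusted p = 0.0509) while Slc7a2 and Slc38a10 gained one (0.0468 and 0.0214). Genes below about 10 normalized counts rest on few reads, so their values are imprecise. Without the filter, or without any single control, Slc6a11 was tested and passed as higher.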
